A study of Mus musculus with 5 samples.

Results

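The cells described here were proximal tubule cells of mouse kidney with little RNA from the mitochondrial genome. They were selected on their own counts of unique molecular identifiers (UMIs, each of which stands for 1 captured transcript). A barcode was a member when it held at least 500 genes and under 2% mitochondrial UMIs, at least 10 UMIs of the proximal tubule enzymes Gatm, Ass1, Miox and Fbp1 together, under 3 of Slc7a12 and Slc7a13, and none of Ptprc, Cd79a, Cd3d, Cd3e, Cd3g, Slc12a3, Slc12a1 or Atp6v1g3. This rule took 2420 of 26237 barcodes, out of 8641 that passed the same gate with under 50% mitochondrial UMIs. The comparison cells passed the same gate with 5 to 25% mitochondrial UMIs and numbered 3833. The kidneys came from C57BL/6j mice in which lupus had been induced with pristane, a hydrocarbon oil, and which then received either saline (n = 2) or faecal microbiota taken from MRL/MpJ mice (FMT, n = 3). All 5 libraries thus carry the pristane treatment, and no kidney without lupus was analysed here. The libraries held 15333445 to 45309178 UMIs in 3426 to 7003 barcodes. Ages, sexes and the number of animals behind each library are not given in the sources used here. The labels call the material renal tubular epithelial cells and also a cell line, and the extraction text names B cells and kits for bulk RNA beside droplet libraries. Sample titles begin with C or D in the saline group and B in the FMT group, so a batch that follows these letters cannot be told apart from the treatment.

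The proximal tubule takes back most of the filtered glucose, phosphate, amino acids, bicarbonate and protein. Carriers in its brush border move these solutes into the cell, and densely packed mitochondria supply the ATP that the transport needs. Respiratory chain complexes are assembled from a few proteins encoded in the mitochondrial genome and many encoded in the nucleus. The share of mitochondrial transcripts in a barcode is widely used as a quality measure, mainly for its high end.

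Markers outside the gate stood at unequal levels beside B cell barcodes of the same libraries, and some were not above them. Npl, an enzyme of sialic acid breakdown that the gate did not use, stood at 162 to 334 CPM (UMIs scaled to a common total of non-mitochondrial UMIs per library) in the members of the 5 libraries. In B cell barcodes (at least 2 Cd79a UMIs), which should lack Npl, it stood at 19.7 to 35.6 CPM. The ratio of members to B cells was 4.55 to 13.2. Free RNA in the droplets and RNA of other cells caught with a B cell were not told apart, so the B cell level is not a measure of free RNA alone. Hnf4a, a transcription factor of the proximal tubule, was 2.42 to 6.29 times its B cell level. Kap, a further proximal tubule gene, had 0.823 to 21.5 CPM in members. This was 0.312 to 13.3 times the B cell level where B cells held any. Kap was uneven in the comparison cells too, with 53.6 and 269 CPM in saline replicates 1 and 2. In FMT replicates 1 to 3 they had 52.0, 1.13 and 4.84 CPM. In FMT replicate 2 members had more, at 21.5 CPM. The apical receptors and carriers were closer to the B cell level than Npl was. Slc34a1, the sodium-phosphate cotransporter, was 1.30 to 5.71 times the B cell level in members and 3.59 to 26.2 times in the comparison cells. Lrp2 (megalin), the endocytic receptor for filtered protein, was 0.976 to 5.28 times the B cell level in members and 3.67 to 26.0 times in the comparison cells. Saline replicate 2 and FMT replicate 1 gave the lowest of these ratios. Lrp2 was at 0.976 and 0.986 times the B cell level in them. Its partner Cubn was at 1.21 and 1.06 times and the fatty acid transporter Slc27a2 at 0.823 and 1.12 times. In these libraries the levels of these genes in members were thus at or near those of B cell barcodes. Median UMIs per barcode were 3623 and 3196 in these B cells and 4873.5 and 6391.5 in members. The part of free RNA in these levels was not tested.

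Some member barcodes also held UMIs of other cell types. Urothelial UMIs (at least 10 in a barcode) were found in 6 members, of which 3 were in FMT replicate 2 and 1 each in saline replicate 2, FMT replicate 1 and FMT replicate 3, and in 2 comparison cells. Haemoglobin UMIs (at least 5) were found in 42 members and 48 comparison cells. At least 1 UMI of the myeloid marker list was found in 481 of 2420 members and 780 of 3833 comparison cells. Of 8 podocyte markers 5 had UMIs in members, with summed levels of 34.5 to 47.9 CPM over the libraries and Nphs1 and Wt1 at 0. Of 10 stromal markers 3 had UMIs (0.564 to 7.37 CPM), and Col1a1, Col1a2, Col3a1, Dcn, Lum, Pdgfra and Pdgfrb were at 0. All 10 endothelial markers had UMIs (1.13 to 78.8 CPM), as did 8 of 9 markers of the thick limb and distal tubule (228.5 to 306.7 CPM), 6 of 7 of intercalated cells (0.717 to 10.3 CPM), 6 of 8 of principal cells (10.3 to 44.2 CPM), 7 of 8 of B cells (51.9 to 147.6 CPM), 6 of 7 of plasma cells (42.9 to 84.7 CPM) and all 9 of T and NK cells (3.39 to 18.9 CPM). The B cell list held Ly6d, which was also used to choose the urothelial barcodes. Of its 1004 UMIs in members, 95.1% lay in those 6 barcodes, which follows in part from that choice. The B cell level is thus not a measure of B cell RNA alone. The part of these cell types in the results was not tested. Scrublet scores marked 19 members as doublets. Library pairs shared 3 to 12 barcode sequences, and 1 of these was a member in both libraries of its pair.

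The mitochondrial share formed a continuous range with no gap at 2%. Counts of members were 411 and 194 in saline replicates 1 and 2, and 496, 821 and 498 in FMT replicates 1 to 3. Of the members, 1234 (50.99%) lay under 0.5% and 80 had no mitochondrial UMI, 43 of them in FMT replicate 2, 29 in FMT replicate 3, 5 in saline replicate 1, 3 in FMT replicate 1 and 0 in saline replicate 2. The values on both sides of the limit are given as a description, since all these cells had to pass the gate. The 340 members at 1.5 to 2% had a median of 2163 genes and 1.39% of their non-mitochondrial UMIs from the gate enzymes, and the 365 cells at 2 to 2.5% had 2278 genes and 1.39%.

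**Figure D1:**
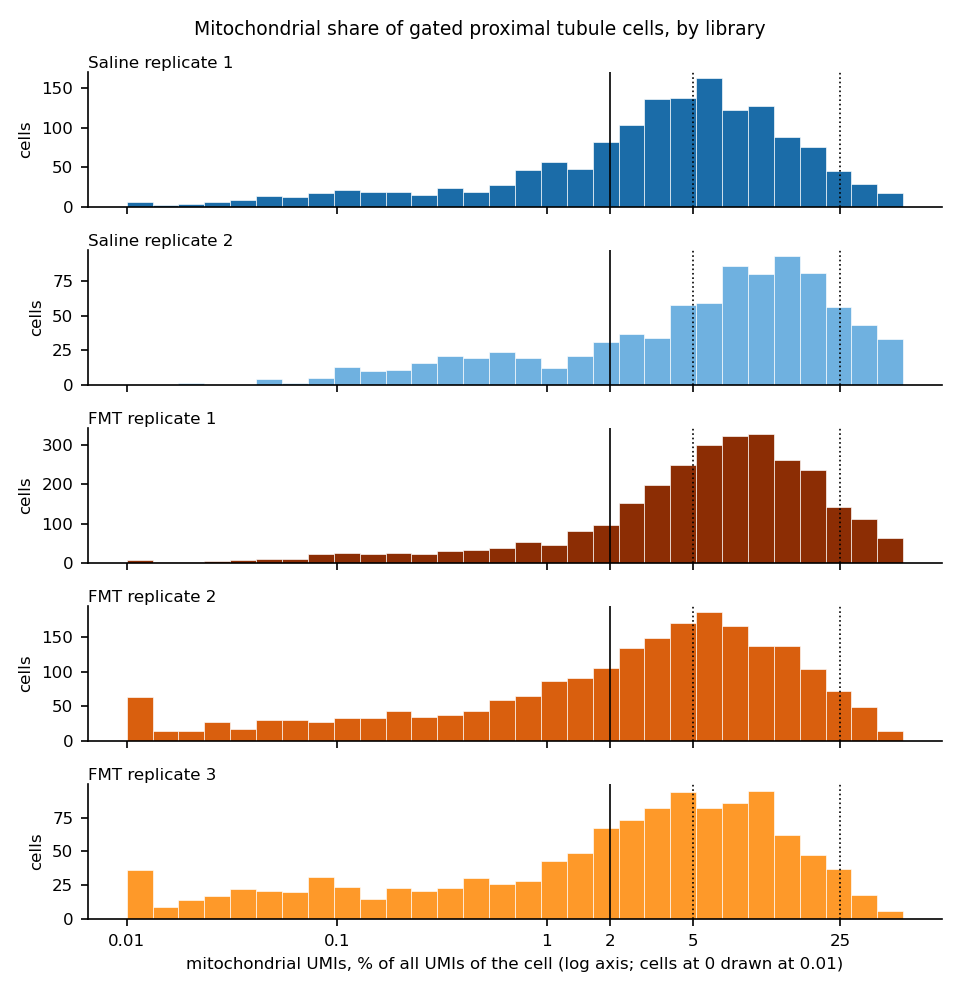
Histograms of the mitochondrial share of gated proximal tubule cells under 50%, 1 panel per library, with the share on a log axis and the number of cells on the vertical axis. The solid line marks the 2% limit and the dotted lines 5 and 25%; the left tail under 0.5% is present in all 5 libraries and holds 1234 cells.

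Members made up 27.6% (95% exact binomial interval 25.4 to 29.99) and 22.4% (19.6 to 25.3) of gated cells in saline replicates 1 and 2. In FMT replicates 1 to 3 they made up 17.1% (15.7 to 18.5), 37.6% (35.6 to 39.7) and 41.5% (38.7 to 44.3). The FMT libraries held both the lowest and the highest share, so the groups overlapped. The means were 24.99% ± 3.74 (SD, n = 2) and 32.1% ± 13.1 (SD, n = 3), a difference of 7.07 percentage points with a two-sided exact permutation p of 0.5, where 0.1 is the smallest this design allows. These intervals and all UMI counts cover counting error only.

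The gate set lower limits on genes and on gate enzyme UMIs, for members and comparison cells alike. Members could therefore not be very shallow barcodes, and their depth was compared only within these limits. Their median number of non-mitochondrial UMIs per cell was 4566 and 4855 in saline replicates 1 and 2, and 6320.5, 5574 and 5316.5 in FMT replicates 1 to 3. The comparison cells had medians of 4168 and 5197, and of 5929, 4325 and 3614. Depth was higher in members in 4 of 5 libraries, with saline replicate 2 as the exception, and the mean log2 ratio was 0.21 ± 0.25 (SD, n = 5; two-sided exact sign-flip permutation p = 0.188, smallest possible 0.0625).

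The RNA make-up of the cells changed along the whole range of mitochondrial shares, in opposite directions for different classes of transcripts. Values here are percentages of non-mitochondrial UMIs, averaged over the 5 libraries. Malat1, a long non-coding RNA kept in the nucleus, accounted for 0.825% under 0.5% mitochondrial share, 2.97% at 1 to 2%, 3.86% at 2 to 5% and 4.499% at 10 to 25%. The solute carriers outside the Slc25 family, which sit in the plasma membrane and in vesicles, went from 0.451% to 0.999%, 1.38% and 2.40% over the same bins. Lysosomal proteins went from 0.188% to 0.323%, 0.438% and 0.781%. The cytosolic ribosomal proteins ran the other way, with 15%, 14.6%, 13.4% and 11.6% over these bins and a peak of 15.9% at 0.5 to 1%, and so did proteasome subunits with 0.698%, 0.605%, 0.561% and 0.430%. Transcripts of the nuclear-encoded respiratory chain and ATP synthase made up 11.3% of UMIs in the cells under 0.5% and 9.19% at 10 to 25%, so this share was not lower in the cells with the least mitochondrial RNA.

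**Figure D2:**
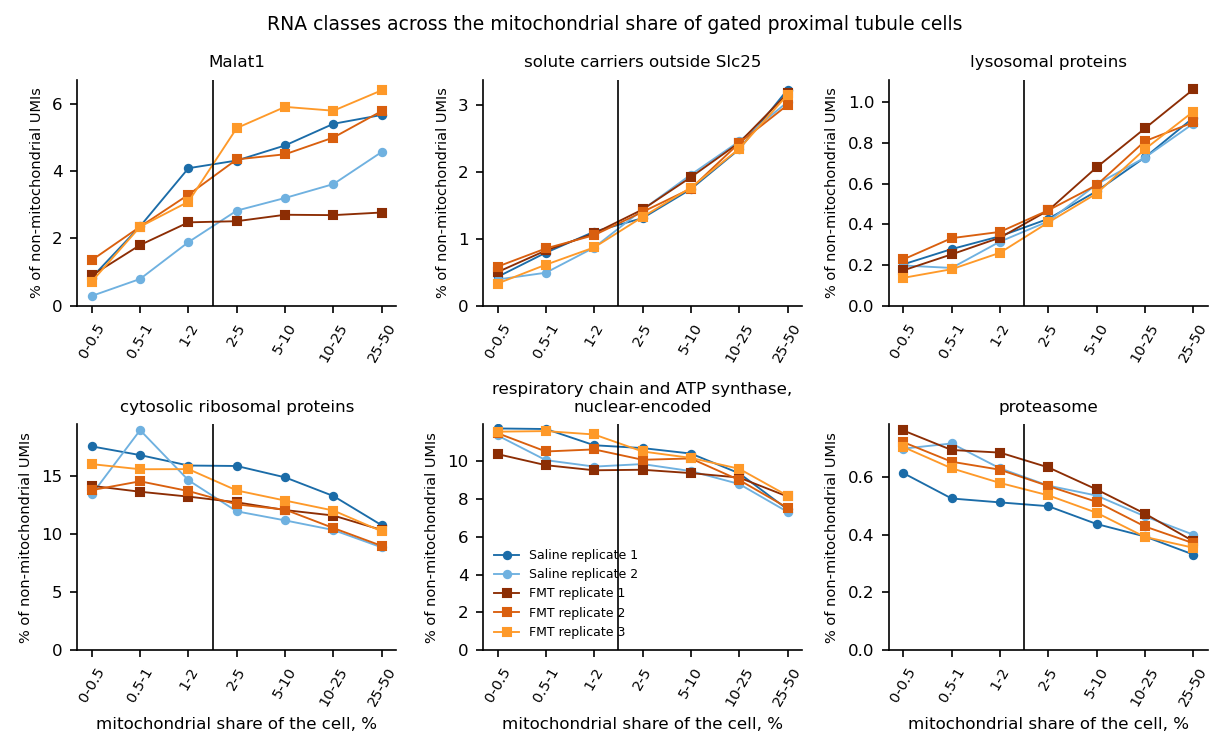
Share of non-mitochondrial UMIs (vertical axis, %, from 0) taken by 6 RNA classes in gated proximal tubule cells, binned by mitochondrial share (horizontal axis, %), with 1 line per library and the 2% limit drawn as a vertical line. Solute carriers rise from bin to bin in all 5 libraries, and the mean over libraries of proteasome subunits falls from 0.698% to 0.430% between the bins 0 to 0.5% and 10 to 25%.

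UMIs were summed per library in members and in comparison cells, mitochondrial and gate genes were left out, and the sums were compared with edgeR's quasi-likelihood F test with the library as a block and Benjamini-Hochberg adjustment. Of 9980 genes tested, 5861 (58.7%) passed an adjusted p of 0.05. Among them 3019 (30.3% of genes tested) were higher in members and 2842 (28.5%) were lower. All lists below are to be read against these shares, since most genes of any list would be called here. TMM scaling (edgeR's trimmed mean of M-values) set the median gene at a log2 fold change of 0.0048. Without it the median shifted to -0.15, and 2128 genes were called higher and 3640 lower, so differences under about this size depend on the scaling.

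Most transport genes were lower in members. Of 46 tested genes of apical and basolateral transport, 44 fell and 2 rose, with a median log2 fold change of -1.53. Slc34a1 (NPT2A) had 1633 and 1132 CPM in members of saline replicates 1 and 2, and 1832, 1522 and 966 CPM in those of FMT replicates 1 to 3. The comparison cells had 4447, 5667, 5013, 4143 and 4407 CPM in the same order. No member value reached the lowest comparison value, and the log2 fold change was -1.6 (SE 0.10, adjusted p = 5.7e-12). The log2 fold change of Lrp2 was -1.87 (SE 0.10), that of Cubn -1.71 (SE 0.11), that of Slc13a3, a dicarboxylate carrier, -1.97 and that of Slc27a2 -1.78.

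All 9 tested genes of the segment 1 list fell (median -1.42), among them Slc5a2 (SGLT2), the main glucose carrier of the early tubule, which went from 381 ± 56.4 CPM (SD, n = 5 libraries) in comparison cells to 118 ± 41.9 CPM in members. Its neighbours Slc2a2 (GLUT2), the basolateral glucose exit, and Slc5a10 were at -1.53 and -1.98. Of 8 segment 2 genes, 7 fell and 1 rose, with the organic anion transporters Slc22a6 and Slc22a8 at log2 fold changes of -1.79 and -1.61. Segment 3 genes had no common direction, 4 lower, 3 higher and 1 not called of 8, and the median of -0.51 turned to 0.22 when each cell was thinned to 1000 UMIs. Slc5a1 (SGLT1), the late glucose carrier, had the largest fall among the genes named by size, at -2.26 (SE 0.14), from 65.5 ± 15.5 to 11.95 ± 5.94 CPM. Hnf4a was not called, with a log2 fold change of -0.05 (SE 0.08, adjusted p = 0.60). In the wider list of proximal tubule identity genes, 23 of 39 tested (59.0%) were lower and 12 (30.8%) higher, with a median of -1.05.

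Among the 161 tested solute carriers outside Slc25, 155 fell, 0 rose and 6 were not called, with a median of -1.26. The Slc25 family, whose proteins are carriers of similar build in the mitochondrial inner membrane, was divided instead, with 11 higher, 10 lower and 14 not called of 35 and a median of 0.02 that changed sign in 13 of 22 alternatives. Slc25a4 and Slc25a5, the ADP/ATP carriers, were at 0.88 and 0.84, and Slc25a3, the phosphate carrier, at 0.73. Slc25a4 had 982, 1333, 1087, 1115 and 1006 CPM in members against 576, 735, 740, 723 and 580 CPM in comparison cells, in the library order used above, with no overlap. The family lists named here and below for proteasome, chaperonin, translation factors, V-ATPase, translocon, lysosome, P450 and solute carriers were drawn up from gene names after first values had been seen.

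Transcripts of secretory and lysosomal proteins were lower as well. Of 37 lysosomal genes, 35 fell and 0 rose (median -1.34). Psap, the precursor of the saposins that help lysosomal lipid breakdown, had 104, 82.5, 75.6, 97.0 and 52.5 CPM in members and 398, 374, 341, 355 and 364 CPM in comparison cells. The lysosomal proteases Ctsb and Ctsl were at -1.81 and -1.63, and the membrane protein Lamp1 at -1.11. All 26 tested genes of the cytochrome P450 and UDP-glucuronosyltransferase families, enzymes of the endoplasmic reticulum membrane, fell (median -1.45), with Cyp4a14 at -2.02 and Cyp4b1 at -1.78. In the list of translocon, signal peptidase and oligosaccharyltransferase genes, which bring proteins into the endoplasmic reticulum and glycosylate them, 19 of 24 fell and 2 rose, and Sec61a1, the channel itself, was at -1.42. Other large falls were those of Retsat (-2.21), a retinol saturase, App (-2.17), the amyloid precursor protein, Enpep (-2.07), a brush border peptidase, Cdh16 (-2.06), the kidney cadherin, Mep1a (-2.0), a subunit of meprin, and Man2b1 (-1.98), a lysosomal mannosidase.

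Nuclear RNAs formed a further group that was lower. Of 8 long non-coding RNAs known to stay in the nucleus, 7 fell. Malat1 had 23900, 8194, 17210, 21450 and 16820 CPM in members and 50090, 34190, 26990, 46830 and 58590 CPM in comparison cells, and its log2 fold change was -1.18 (SE 0.12, adjusted p = 1.9e-08). Saline replicate 2 had the lowest member value. Neat1, the scaffold of paraspeckles, was at -1.37, Kcnq1ot1 at -1.28 and Xist at -1.3. Genes known for detained introns or for splicing were mostly lower too, with 29 of 34 called lower and 2 higher (median -0.54), for example Clk4 at -1.01 and Ogt at -1.0.

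Nuclear genes for mitochondrial proteins rose by smaller amounts. In complex I, 33 of 37 rose and 1 fell (median 0.41). In complexes II to IV, 18 of 26 rose and 1 fell (0.30), and all 18 ATP synthase genes rose (0.45). Ndufs3, a core subunit of complex I, had 524, 603, 642, 589 and 619 CPM in members and 348, 434, 467, 405 and 364 CPM in comparison cells, a log2 fold change of 0.73 (SE 0.07, adjusted p = 1.9e-08). Uqcrfs1, the Rieske protein of complex III, was at 0.79, Sdhd of complex II at 0.81 and Atp5f1 of ATP synthase at 0.76. Mitochondrial ribosomal protein genes rose in 71 of 76 cases (median 0.52), led by Mrps31 at 0.88. Of 20 citrate cycle genes 10 rose and 2 fell, and of 27 genes that maintain or express the mitochondrial genome 13 rose and 5 fell. Tufm, the mitochondrial elongation factor, was at -0.65 while its exchange factor Tsfm was at 0.59. The list of mitochondrial turnover had 13 higher and 4 lower of 29, and the mitophagy receptors Bnip3l, Fundc1 and Bnip3 were at 0.75, 0.73 and 0.71. Its median of 0.05 turned to -0.10 without TMM scaling, and it also changed sign against cells at 25 to 50%. The medians of the citrate cycle and mitochondrial genome lists changed sign among cells with little Malat1, described below, and the latter also against cells at 25 to 50%.

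Cytosolic protein synthesis and breakdown rose with them. Cytosolic ribosomal protein genes were higher in 77 of 80 cases and lower in 0, with a median of 0.47 and Rpl3 (0.93) and Rpl21 (0.88) in front. All 37 proteasome genes rose (median 0.67), for example Psmb6, a catalytic subunit, from 332 ± 26.0 to 471 ± 30.7 CPM. All 7 genes of the cytosolic chaperonin that folds actin and tubulin rose (0.60), with Cct5 at 0.83. Translation factors were higher in 38 and lower in 4 of 56. In glycolysis and gluconeogenesis 14 of 18 rose and 3 fell: the cytosolic enzymes Ldhb, Pgam1 and Gapdh were at 1.00, 0.98 and 0.79, whereas G6pc and Slc37a4, the phosphatase and the transporter that release glucose in the endoplasmic reticulum, were at -1.08 and -1.39.

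Fabp3, a cytosolic fatty acid binding protein, and Npl were among the genes that rose. Fabp3 had 281, 292, 148, 279 and 221 CPM in members and 71.6, 94.2, 79.2, 137 and 113 CPM in comparison cells, with the lowest member value above the highest comparison value and a log2 fold change of 1.44 (SE 0.12, adjusted p = 2.8e-10). Npl was at 1.36 (SE 0.11). Serpinb6a, an intracellular protease inhibitor, was at 1.34, the C-type lectin gene Clec2h at 1.16, Anxa5, a phospholipid binding protein, at 1.06, the ubiquitin gene Ubb at 1.04 and Glrx3, a glutaredoxin, at 1.02.

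**Figure D3:**
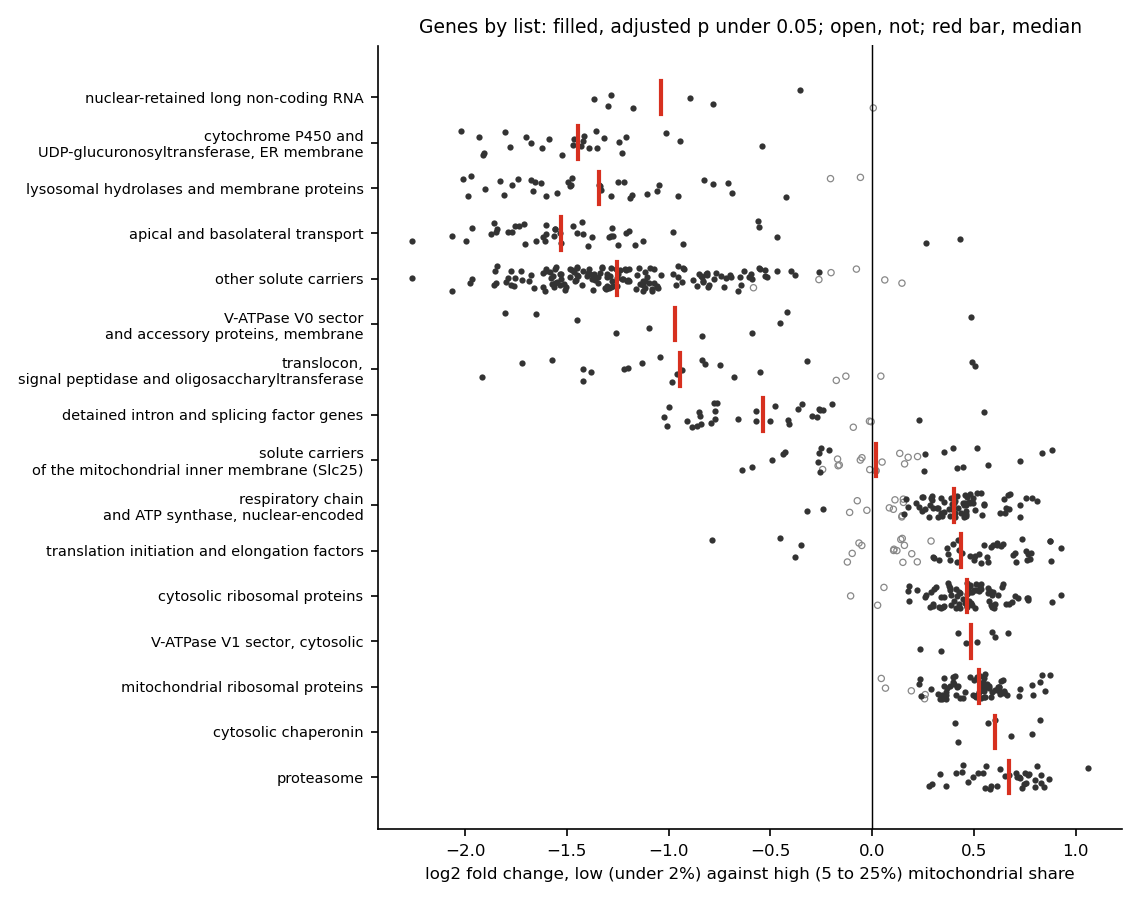
Log2 fold changes of members against comparison cells (horizontal axis) for the tested genes of 16 lists, 1 point per gene, filled where the adjusted p is under 0.05; red bars mark the medians and vertical scatter within a list has no meaning. The solute carriers outside Slc25 (median -1.26) lie left of 0, and proteasome genes (median 0.67) lie right of it.

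Related proteins that work in different compartments went different ways. The chaperone gene Hsp90ab1, for the cytosol, rose by 0.44 (SE 0.07). Its mitochondrial relative Trap1 was not called at 0.06 (SE 0.10), and Hsp90b1 (GRP94), of the endoplasmic reticulum, was at -1.76 (SE 0.10). Hspa8, the cytosolic HSP70, was at 0.56, mitochondrial Hspa9 was not called at 0.16, and Hspa5 (BiP) of the endoplasmic reticulum was at -1.53. Among peroxiredoxins, which break down peroxides, cytosolic Prdx1 and Prdx2 were at 1.01 and 0.90, mitochondrial Prdx3 at 0.70 and secretory Prdx4 at -1.18. Prdx1 had 2036, 2719, 2871, 2898 and 2995 CPM in members and 1148, 1583, 1735, 1588 and 1461 CPM in comparison cells. Secreted Sod3 was at -1.49 and mitochondrial Sod2 at 0.71, but cytosolic Sod1 was at -0.31, against the direction of Prdx1 and Prdx2. Gpx1, which is intracellular, was at 0.67 and Gpx3, the secreted glutathione peroxidase made by these cells, at -0.89, from 22940 ± 3175 to 11260 ± 3045 CPM. In the V-ATPase proton pump all 8 genes of the cytosolic V1 sector rose (median 0.49), and 9 of 10 genes of the membrane sector V0 and its accessory proteins fell (median -0.97). The remaining V0 gene, Atp6v0d1, rose by 0.49; its product is a soluble subunit of that sector.

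This division was described across all genes by a property of the encoded protein that the gate did not use. The property and the coding length classes were chosen after first values had been seen, so the counts are no independent test of the division. Proteins were translated from GENCODE M21 transcripts and marked when any window of 19 residues had a mean Kyte-Doolittle hydropathy of at least 1.6, which is typical of membrane spans and of some signal peptides. Of 3012 tested genes with such a stretch, 365 were higher and 1751 (58.1%) lower, with a median of -0.56. Of 6649 genes without it, 2607 were higher and 1025 (15.4%) lower, with a median of 0.16, which became 0.0006 without TMM scaling while the other became -0.72. The 23 nuclear-encoded respiratory chain and ATP synthase genes with a stretch did not follow, with 18 higher and 1 lower. The counts also differed with coding length. Among genes without a stretch, 437 of 541 with coding lengths under 150 residues were higher and 13 lower, and 8 of 265 with at least 1500 residues were higher and 147 lower. Within the class of 300 to 499 residues, 497 of 795 genes with a stretch and 184 of 1857 without one were lower. Genes are not independent replicates, and these counts describe the table of all genes.

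Malat1 was at or near 0 in most members. Each cell was thinned to 1000 non-mitochondrial UMIs, which left out 6 to 14 members and 2 to 9 comparison cells per library. Of 2371 members, 1538 (64.9%) then had at most 1 Malat1 UMI, 144 (6.07%) had 2 to 9 and 689 (29.1%) had at least 10. Of 3810 comparison cells, 34.8% had at most 1 and 58.8% at least 10. The share of members with at most 1 was 61.9% and 83.5% in saline replicates 1 and 2, and 57.6%, 61.0% and 74.1% in FMT replicates 1 to 3. Comparison cells had 32.6%, 38.1%, 32.5%, 37.9% and 37.1%, so the ranges did not overlap. Without thinning, 57.8 to 84.9% of members and 79.6 to 90.2% of comparison cells had any Malat1 UMI. B cells, at medians of 2524 to 3623 UMIs, had at most 1 Malat1 UMI of 1000 in 5.13 to 13.0% of cells. Intercalated cells, at medians of 1414 to 2621 UMIs, had it in 45.0 to 80.4%, and distal tubule cells, at 4622 to 7158 UMIs, in 11.6 to 39.8%. Along the mitochondrial share the class made up 88.3% of cells under 0.1%, 61.2% at 0.5 to 1%, 38.0% at 1.5 to 2%, 36.3% at 2 to 2.5% and 32.7% at 5 to 10%.

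**Figure D4:**
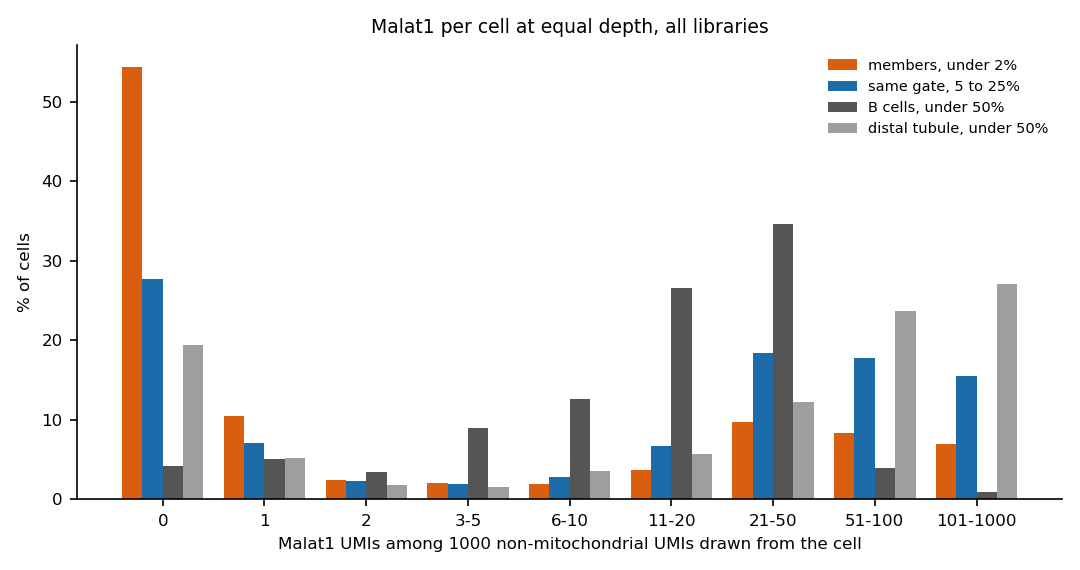
Percentage of cells (vertical axis) by the number of Malat1 UMIs among 1000 non-mitochondrial UMIs drawn from each cell, for members, comparison cells, B cells and distal tubule cells of all 5 libraries. The bins widen from left to right, so bar heights do not compare single UMI values; 64.9% of members and 34.8% of comparison cells have at most 1.

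The comparison of members with comparison cells was repeated among cells with much and with little Malat1, a check added after the data had been seen. Among cells with at least 10 Malat1 UMIs, 3089 of 9103 genes were called. Of these 1694 were higher, and 1395 (15.3% of genes tested) were lower. Among cells with at most 1, 2316 of 7408 were called, of which 918 were higher and 1398 (18.9% of genes tested) lower. The list counts that follow are to be read against these. Apical and basolateral transport genes fell in 43 of 46 cases in both, with medians of -0.72 where Malat1 was present and -2.40 where it was low. Lysosomal genes had 28 of 36 lower (median -0.73) and 31 of 32 lower (-2.33). Detained intron and splicing genes had 9 of 34 lower (median -0.18) and 1 of 33 lower with 8 higher (0.15). Nuclear-encoded respiratory chain and ATP synthase genes had 52 of 81 higher where Malat1 was present (median 0.27). Where it was low, 14 of 81 were higher and 22 lower (median -0.01), so that the direction of the list did not hold there. Cytosolic ribosomal genes had 64 of 80 higher (0.33) and 23 higher with 8 lower (0.07), and proteasome genes 30 and 20 of 37 higher with 0 lower in either. The difference between these 2 sets of cells was not tested.

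Tubule cells of other types were divided at the same limits for comparison, as a description. In intercalated cells, which regulate acid and base, the summed level of solute carriers outside Slc25 was lower in the cells under 2% in 5 of 5 libraries (mean log2 ratio -1.70), Malat1 was at -2.04 and cytosolic ribosomal proteins at 0.73. In distal tubule cells the same values were -0.67 (5 of 5 libraries lower), -0.59 (4 of 5) and 0.34. In proximal tubule cells they were -1.62, -1.34 and 0.30. Apical and basolateral transport was at -0.08 in distal tubule cells (2 of 5 libraries lower), -0.70 in intercalated cells (5 of 5) and -0.76 in proximal tubule cells (5 of 5). The nuclear-encoded respiratory chain and ATP synthase were at -0.09 in intercalated cells (4 of 5 lower), 0.29 in distal tubule cells (0 of 5 lower) and 0.18 in proximal tubule cells (0 of 5 lower). The numbers of other cells were small, with 7 to 35 intercalated and 8 to 67 distal tubule cells per library at 5 to 25%.

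Lists of stress and injury differed in how far their called genes shared a direction. Heat shock and chaperone genes had 8 higher and 8 lower of 20, with a median of 0.05 that changed sign in 11 of 22 alternatives. Of 18 immediate early and dissociation genes, 3 rose, 1 fell and 14 were not called, and the median of 0.16 changed sign in 6 of 22 alternatives. Of 21 p53 and cell death genes, 8 rose and 1 fell (median 0.14, -0.02 without TMM scaling), with Bid at 0.62 and Bax at 0.45. The integrated stress response had 5 higher and 3 lower of 16, and the serine synthesis genes Phgdh and Psph were at 1.38 and 0.91. Of 28 interferon response genes 12 rose and 8 fell, Ifi27 at 0.99 and Lgals3bp at -1.76. Fatty acid oxidation and peroxisome genes were higher in 17 and lower in 3 of 32 (0.26), for example Pecr at 0.83, with a median that also changed sign among cells with little Malat1. Cell cycle genes were higher in 8 and lower in 0 of 13, led by the tubulin gene Tubb5 (0.84) and Stmn1 (0.81), which also serve cells that do not divide.

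Some of the largest rises came from the urothelial barcodes. Krt7, S100a6, Krt19 and Krt18 were the injury genes with the largest rises, between 3.64 and 4.44, and Upk3a, which encodes a uroplakin, was at 4.23. The 6 urothelial barcodes held 98.6% of the 779 Upk3a UMIs and 98.1% of the 5773 S100a6 UMIs of all members. They also held 67.5% of those of Akr1b3, an aldose reductase, which was at 2.6. Upk3a was among the markers that chose these barcodes, so its share follows in part from the choice. S100a6 and Akr1b3 were not among those markers. The share of keratin UMIs in these barcodes was not measured. Without these barcodes S100a6 was at -0.47 (adjusted p = 0.083 by edgeR), and the injury list's median went from 0.38 to -0.30. Removing them left the count of called genes at 5907.

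Enzymes of purine salvage rose among the inosine and purine genes, of which 11 rose and 3 fell of 20 (median 0.36). Pnp, which splits inosine into hypoxanthine, had 60.1, 137, 123.1, 150 and 95.5 CPM in members and 35.2, 61.8, 68.5, 80.8 and 45.6 CPM in comparison cells. It was higher in members in each of 5 libraries although the ranges overlapped, with a log2 fold change of 1.10 (SE 0.09, adjusted p = 4.9e-10). Hprt, which turns hypoxanthine back into a nucleotide, was at 1.03, Adk, the adenosine kinase, at 0.77 and Impdh2, of guanine nucleotide synthesis, at 0.79. Slc29a3, a nucleoside transporter of lysosomes, was at -1.55. Xdh, which oxidises hypoxanthine to uric acid, was not called at -0.07 (SE 0.14).

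FMT was compared with saline within the members. Of 10134 genes tested, 10 passed (0.0987%), 0 of them higher after FMT, and 654 had an unadjusted p under 0.05. Gadd45g, a growth arrest gene induced by stress, had 249 and 136 CPM in saline replicates 1 and 2 and 25.8, 34.4 and 27.0 CPM in FMT replicates 1 to 3 (chromosome 13, 51846678 to 51848468, GRCm38; log2 fold change -2.73, SE 0.25, adjusted p = 8.6e-04). Cyp24a1, the hydroxylase that inactivates vitamin D, had 376 and 250 CPM after saline and 68.6, 58.9 and 40.7 CPM after FMT (chromosome 2, 170482708 to 170497145; -2.48, SE 0.23, adjusted p = 8.6e-04). Ccnd1, cyclin D1, had 397 and 319 CPM after saline and 90.5, 70.1 and 114 CPM after FMT (chromosome 7, 144929931 to 144939925; -1.95, SE 0.24, adjusted p = 7.9e-03). In these genes the lowest saline value lay above the highest FMT value. Plk3, a stress-induced kinase, was at -2.92 (39.6 ± 13.6 CPM after saline, n = 2, and 5.37 ± 0.967 after FMT, n = 3), Nuak2, a kinase related to AMPK, at -1.63 and Tob2, a growth inhibitor, at -1.50. Sgk1, a kinase induced by serum and glucocorticoids, missed the limit with 442 and 301 CPM after saline and 94.9, 32.5 and 105 CPM after FMT (-2.25, SE 0.39, adjusted p = 0.079).

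**Figure D5:**
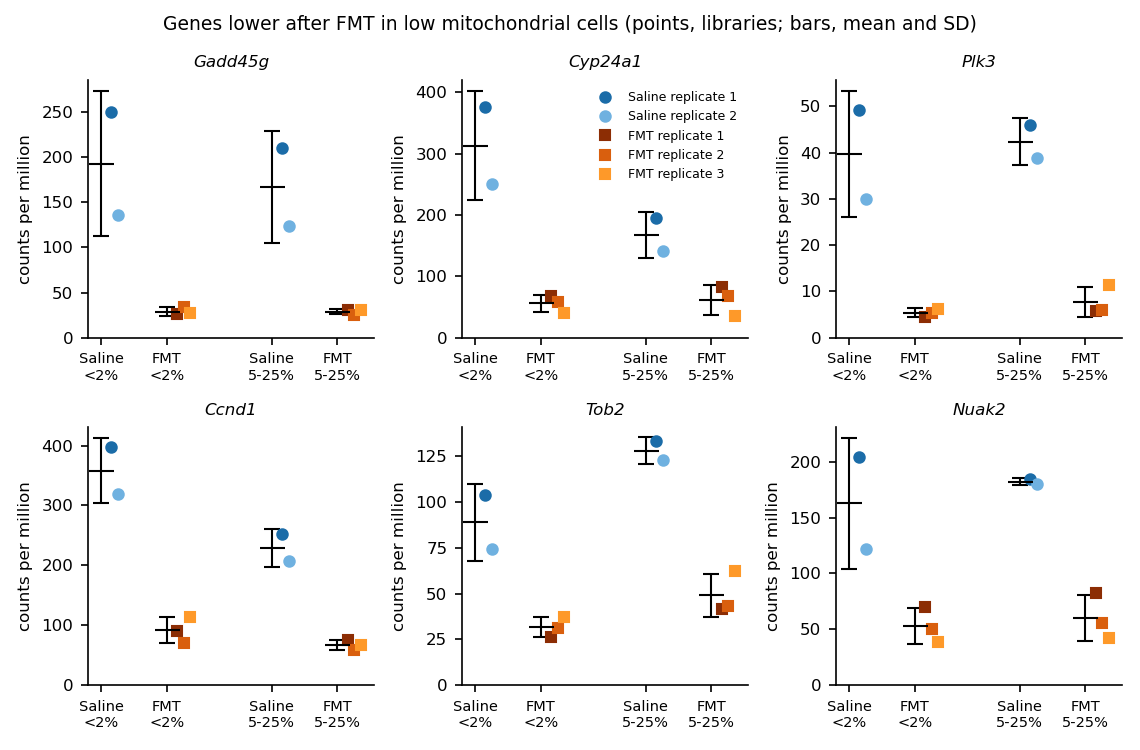
Levels in CPM (vertical axes, from 0) of 6 genes in each library, for cells under 2% and at 5 to 25% mitochondrial share; circles are saline libraries (n = 2), squares FMT libraries (n = 3), and black bars the mean and SD. In both classes of cells the saline points of each gene lie above the FMT points.

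The other 4 called genes were Camp, Lyz2, Fcer1g and Tyrobp, which mark neutrophils and monocytes, at log2 fold changes of -5.33, -3.03, -2.90 and -2.78. They were under the level set for named genes and are given because they complete the count. Their highest mean was 20.2 CPM, for Camp after saline. Of 13 monocyte and macrophage markers 10 had UMIs in members, with a summed level of 23.1 to 28.7 CPM in saline and 3.39 to 6.33 CPM in FMT libraries, and C1qa, Lyz1 and Ms4a7 at 0. All 10 neutrophil markers had UMIs, at 81.9 to 315 CPM in saline and 6.21 to 43.7 CPM in FMT libraries. All 7 erythroid markers had UMIs, at 381 to 2412 CPM in saline and 10.0 to 227 CPM in FMT libraries. Members with a myeloid UMI were 45.0% and 19.6% in the saline libraries, and 9.07%, 8.65% and 28.5% in the FMT libraries, and these ranges overlapped. The part of these cells' RNA in the calls was not tested beyond the fit that follows. After removal of all members with urothelial, myeloid or haemoglobin UMIs, Gadd45g, Cyp24a1, Ccnd1, Plk3, Nuak2 and Tob2 were among 20 called genes.

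The number of calls moved with the barcodes and libraries used. Without the 6 urothelial barcodes 33 of 10011 genes were called (0.33%), 7 of them higher after FMT. They held the same 10 genes, Sgk1 at -2.27, the thymosins Tmsb4x at -1.97 and Tmsb10 at -1.80, and, among those higher, the betaine enzyme Bhmt at 1.31 and the dicarboxylate carrier Slc13a2 at 1.33. Without FMT replicate 3 no gene passed by edgeR, and 444 had an unadjusted p under 0.05. Without saline replicate 2, 3 genes passed, and without saline replicate 1, 25. All 10 genes kept their direction in each of these fits. Between treatments, 0 genes were called in the lists of solute carriers, lysosome, proteasome, respiratory chain and ribosomal proteins, which separated members from comparison cells. Over all genes 10 of 10134 (0.0987%) were called, so 0 calls in lists of this size do not set these classes apart. The medians of these lists lay between -0.11 and 0.14, beside -0.01 over all genes.

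The same genes are set beside their values in the comparison cells. Gadd45g had means of 167 ± 61.6 CPM after saline and 28.7 ± 2.86 after FMT there, and 192 ± 80.2 and 29.0 ± 4.64 in members. Its interaction of treatment and mitochondrial class, tested with edgeR with the library as a block, was -0.13 (SE 0.20, adjusted p = 1.0). The interaction of Ccnd1 was -0.19 (SE 0.18), that of Plk3 -0.30 (SE 0.30), that of Tob2 -0.06 (SE 0.18) and that of Nuak2 0.03 (SE 0.19), none of them called. Cyp24a1 differed: its saline mean was 313 ± 88.5 CPM in members and 168 ± 37.5 in comparison cells, its FMT means were 56.1 ± 14.1 and 62.1 ± 24.5, and the interaction was -1.01 (SE 0.18, adjusted p = 7.7e-03). Of 10586 genes tested for an interaction, 12 passed (0.113%), 4 of them with a more positive FMT effect in members. By DESeq2 2 passed, Cyp24a1 and Cbr1, a carbonyl reductase, and without TMM scaling 0 passed by edgeR with 512 at an unadjusted p under 0.05.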

How the data were processed

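Droplet libraries of 5 mouse kidney samples (saline n = 2, FMT n = 3) were deposited as UMI count matrices. The authors made the deposited counts with Cell Ranger, which is version 2.1.1 with mm10 per the submitters' processing notes and version 4.0.0 per the file headers. Filters on cells before deposit and the counting of introns are not given in the sources used here. Nothing says that the libraries came from separate animals, so p-values measure the spread between these libraries.

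Barcodes were gated as described, and UMIs were summed per library and mitochondrial class. Mitochondrial genes (13) and gate genes (14) were left out of the tests. edgeR 4.0.16 (R 4.3.3) with filterByExpr, TMM scaling and the quasi-likelihood F test gave log2 fold changes, standard errors and Benjamini-Hochberg adjusted p-values, called under 0.05. All groups compared entered 1 fit per comparison: members against comparison cells and the interaction had the library as a block, and FMT against saline had none. DESeq2 1.42.0 was an alternative. The scripts were tested on simulated data. Exact permutation tests used scipy 1.17.1, and doublets were scored with Scrublet in scanpy 1.11.5 (0.8% per 1000 cells) and kept in. Gene positions and proteins came from GENCODE M21 (GRCm38), which held 27722 of 27998 gene IDs, and 96.8% of tested genes had a coding sequence.

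Named genes were the 12 largest called changes in each direction with the same sign in every library and a mean of at least 50 CPM, up to 4 called genes per list with at least 20 CPM, and for FMT and the interaction up to 10 per direction with at least 30 CPM. Others, among them the paralogs by compartment and genes that were not called, were chosen after their values were seen. The members and lists were chosen with earlier results of these data known. Reads of near-identical genes, such as the haemoglobin pairs, may be divided between copies. Alternatives changed the filter, scaling, tool, limits, depth, library and barcodes used.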

Additional observations from a re-analysis of the deposited data

Results flagged for a closer look

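The interaction of treatment and mitochondrial class passed the test in 12 genes (edgeR's quasi-likelihood test, adjusted p under 0.05), which are results where the FMT effect in members differed from that in comparison cells. Negative values mean a more negative FMT effect in members. The haemoglobin genes Hbb-bt, Hba-a1, Hbb-bs and Hba-a2 were at -4.22, -4.18, -3.75 and -3.74. Their UMIs lay in few barcodes: the 5 cells with the most held 67.8% of Hbb-bs UMIs of members and 63.8% of those of comparison cells. S100a8, a neutrophil gene, was at -2.38, with 53.4% of its member UMIs in 5 cells. None of these haemoglobin genes nor S100a8 was called in the fit without barcodes with urothelial, myeloid or haemoglobin UMIs, described below. That fit removed barcodes by UMIs of these same genes, so it is no independent test of the part of these few barcodes.

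Cxcl16, a chemokine, was at -1.08, Cyp24a1 at -1.01 and Fabp3 at -0.81. Fabp3 had 287 ± 7.85 CPM after saline (n = 2) and 216 ± 65.8 after FMT (n = 3) in members, and 82.9 ± 16 and 109.9 ± 29.2 in comparison cells. Positive values were those of the carbonyl reductase Cbr1 (0.74), the tyrosine enzyme Hpd (0.81), the predicted gene Gm11128 (1.06) and the glutathione transferase Gsta1 (1.22). After removal of barcodes with urothelial, myeloid or haemoglobin UMIs, 6 of the 12 were still called, Cyp24a1, Cbr1, Gm11128, Hpd, Cxcl16 and Fabp3. Without FMT replicate 3 only 1 of the 12 was called, and without TMM scaling 0.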

How the results depend on the processing

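The count of 5861 genes between members and comparison cells was 5208 to 5689 when a library was left out, 4764 by DESeq2 and 4888 with no replicate block. It was 3089 and 2316 among cells with at least 10 and at most 1 Malat1 UMIs, 3865 against cells at 25 to 50%, 2979 for cells at 2 to 5% in place of members, and 2461 after thinning, which left 5330 genes to test. Of the 10 genes called after FMT, leaving out a library gave 0 to 25. The count was 16 with at least 20 gate UMIs, 17 at 2000 to 8000 UMIs per cell, 35 by DESeq2, 23 under 1%, 168 with no filter on low counts, 5 without TMM scaling, 23 after thinning, 33 without urothelial barcodes and 20 without urothelial, myeloid or haemoglobin barcodes. With the replicate block it was 22. Same-numbered libraries correlated at -0.05 and 0.05. With 2 saline libraries, their correlations with each FMT library were equal and opposite. These values therefore cannot decide whether the numbers pair the libraries. The 12 interaction genes became 1 to 111 when a library was left out, with 111 without saline replicate 1, 23 without saline replicate 2, 20 without FMT replicate 2 and 1 without FMT replicate 3. They became 2 with at least 1000 genes per barcode and by DESeq2, 20 with at least 20 gate UMIs, 6 at 2000 to 8000 UMIs, 23 and 27 with at least 10 and at most 1 Malat1 UMIs, 40 with no filter, 0 without TMM scaling and 27 without urothelial barcodes. The difference in the share of members was 2.37 to 14.6 percentage points and the depth ratio 0.12 to 0.29 when a library was left out, with the same direction throughout. The cause of these shifts was not tested.

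Single genes between members and comparison cells that changed sign were S100a6 (-0.45 at 2000 to 8000 UMIs, -0.47 without urothelial barcodes, -0.57 without all 3 kinds of barcode), Slc25a10 (-0.029 with at least 10 Malat1 UMIs, -0.13 against cells at 25 to 50%), Cyr61 (0.031 with at least 10 Malat1 UMIs, 0.41 for cells at 2 to 5%), Kap (0.12 against cells at 5 to 15%), Junb (-0.12 after thinning, -0.10 at 2000 to 8000 UMIs) and Ier2 (-0.000758 at 2000 to 8000 UMIs). With at most 1 Malat1 UMI, Hspa9 was at -0.25, Pnisr at 0.072, Rbm5 at 0.19 and Atp6v1a at -0.038.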
